A study of Mus musculus with 24 samples.

Results

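Mir182, Mir183 and Mir96 are the microRNA genes of a small cluster on mouse chromosome 6, and their expression was described here in small RNA libraries of mouse embryonic stem cells (mESC) and of neural progenitor cells (NPC). The 3 genes were taken by their symbols in GENCODE M21 from a table of 55335 gene rows, of which 1174 carry a microRNA symbol. The cluster was chosen by its counts in these same libraries, in mESC and NPC, so its levels and its contrast between the cell types are given as a description, with no test.

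The study compared cells that differ in Htt, the gene mutated in Huntington's disease, whose first exon holds a CAG repeat that encodes polyglutamine. Each of 6 genotypes, wild type (WT), Htt knockout (KO) and 4 heterozygous CAG knock-in lines (Q20, Q50, then Q92 and Q111), was profiled as mESC and as NPC, with 2 samples titled as replicates each and 24 libraries in all. The line that the sample titles call Q92 has 89 repeats in the growth protocol. The labels describe the knock-in lines as 1 allelic series with 1 line for each repeat length, so line and repeat length cannot be told apart, and they do not state how the KO or WT lines are related to it. The mESC were grown with leukemia inhibitory factor (LIF) on a layer of irradiated CF-1 mouse embryonic fibroblasts, and the NPC were derived from mESC in N2B27 medium and kept with FGF and EGF on laminin, with no age or sex of the cells given. Whether the 2 samples of a group were separate cultures is not stated, so the p-values measure the spread between these samples, which may be technical.

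The cluster is transcribed as a common primary transcript in vertebrates and is known above all from sensory organs, where it is abundant in retinal photoreceptors and in hair cells of the inner ear. Mutations in the seed of miR-96 cause progressive hearing loss in mice and people. The cluster is also expressed in embryonic stem cells, and its mature 5p microRNAs have similar seeds, the short stretch at the 5′ end that pairs with target mRNAs, so their predicted target sets overlap in part. A microRNA is cut from its hairpin precursor by Drosha and Dicer and acts within an Argonaute protein.

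The mature 5p sequences are shown first, because the members differ by so few bases of the seed that counting has to be read with them in mind. All 3 genes matched an entry of the RefSeq microRNA table for GRCm38.p6, written here 5′ to 3′ with the seed (bases 2 to 8) in capitals.
miR-182-5p: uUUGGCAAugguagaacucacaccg
miR-96-5p: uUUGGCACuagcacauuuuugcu
miR-183-5p: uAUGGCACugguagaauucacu
Positions are counted from 1 at the 5′ end of the mature microRNA. Within the seed, miR-182-5p and miR-96-5p differ by A8C, miR-183-5p and miR-96-5p differ by A2U, and miR-182-5p and miR-183-5p differ by both U2A and A8C, the first-named sequence giving the first base. With the bases outside the seed included, the order of likeness is different. Over positions 1 to 22, miR-182-5p and miR-183-5p share 18 bases, whereas miR-96-5p shares 12 with miR-182-5p and 13 with miR-183-5p. Among 1738 mature entries of the table, the seeds of miR-182-5p and miR-183-5p occurred in no other microRNA. The seed of miR-96-5p occurred also in miR-1271-5p, whose gene had no count in any library.

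The precursors are the rows that were counted, and they are shown to place the 5p arm, in capitals, within each hairpin.
Mir182: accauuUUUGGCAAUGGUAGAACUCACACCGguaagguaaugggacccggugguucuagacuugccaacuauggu
Mir96: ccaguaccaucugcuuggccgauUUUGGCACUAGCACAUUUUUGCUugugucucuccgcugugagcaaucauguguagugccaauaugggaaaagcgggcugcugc
Mir183: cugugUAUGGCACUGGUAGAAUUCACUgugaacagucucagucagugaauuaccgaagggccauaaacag
A row sums all reads assigned to its gene, so the counts do not tell the 5p arm from the 3p arm. Mir182 (ENSMUSG00000076361) lies on the minus strand at chr6:30165918-30165992 of GRCm38, Mir96 (ENSMUSG00000065586) at chr6:30169446-30169551 and Mir183 (ENSMUSG00000065619) at chr6:30169668-30169737. The gap from Mir182 to Mir96 is 3453 bases and that from Mir96 to Mir183 is 116 bases. All 3 rows have the biotype miRNA and lie outside the exons and introns of every other annotated gene, and 0% of their stretches of 20 bases occur in another annotated transcript, so reads of that length match no second transcript exactly.

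Within 100 kb of the cluster, 4 further genes are annotated. Rncr4, a long noncoding RNA on the opposite strand that starts 3156 bases from Mir183, had 4 counts, all in mESC. Nrf1, which encodes a transcription factor of mitochondrial and housekeeping genes, had 42 counts in all (29 in mESC and 13 in NPC). Ube2h, a ubiquitin-conjugating enzyme gene, had 19 (12 and 7), and Gm25580, a miscellaneous RNA gene, had none. The neighbours were thus covered by few reads.

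The libraries held 642384 to 2360434 counts in mESC and 342022 to 682113 in NPC, and microRNA genes took 0.234% of all 25027120 counts (52843 in mESC and 5836 in NPC). Replicate 2 of every mESC line but Q20 had 0.301 to 0.487 times the total of replicate 1 and a higher microRNA share. Levels below are in CPM, counts scaled to a total of 1000000 after TMM scaling, which corrects library totals for composition, or as a percentage of a library's microRNA counts. Htt itself had 3 and 2 counts in the KO mESC and 1 in each KO NPC library, against 0 to 9 in the other 20 libraries, too few to check the knockout label. The ES-cell microRNAs (11 listed) summed to 1208 to 3642 CPM in mESC and to 1 count in the 10 NPC libraries other than Q20. The neural microRNAs (14 listed) summed to 97.1 to 844 CPM in NPC and 0 to 8.36 CPM in mESC, with Mir9-2, Mir124a-1 and Mir181b-1 at 0 counts in both. Mir124a-3 had 6 counts in mESC and 2 in NPC, and Mir128-1 had 5 and 1. Scaled to the unlike depths, Mir124a-3 had means of 0.370 CPM in mESC and 0.386 in NPC, and Mir128-1 of 0.354 and 0.191. Feeder microRNAs (10 listed) had 28 counts in all mESC libraries, with 7 of the 10 at 0, and 9 counts in NPC. Fibroblast mRNAs (6 listed) had 1 count in mESC and 13 in NPC. Lists with so few counts say little on how much feeder RNA the mESC libraries held.

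Mir182 and Mir183 were present in every mESC library and Mir96 was almost absent. Over the 12 mESC libraries Mir182 had 908 counts, Mir183 had 681 and Mir96 had 2, which is 1.72%, 1.29% and 0.00378% of the mESC microRNA counts. Per 100 bases of hairpin these are 1211, 973 and 1.89 counts. Mir96 therefore gave 0.126% of the cluster's 1591 mESC counts (exact 95% interval 0.0152 to 0.453%, which covers counting error only). Its 2 reads were in replicate 2 of Q50 and replicate 2 of Q92. Mir96, whose hairpin lies between those of the other two, did not pass the filter on low counts, and with no filter its mESC genotype comparisons had edgeR adjusted p from 0.988 to 1. A difference in Mir96 was not detectable at this depth.

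Mir182 is the member at the far end of the cluster from Mir183 and had the most counts. Its mESC counts in replicates 1 and 2 were 110 and 86 in WT, 80 and 99 in KO, 63 and 64 in Q20, 95 and 82 in Q50, and then 50 and 52 in Q92 and 54 and 73 in Q111. Scaled, these were 61.0 and 83.7 CPM in WT, 41.7 and 103.4 in KO, 45.2 and 42.1 in Q20, 43.0 and 115.5 in Q50. In Q92 they were 33.0 and 66.5 CPM and in Q111 30.3 and 55.9. In every line but Q20 the shallower replicate 2 had the higher CPM, and the ranges of all lines next to each other in order of mean overlapped. The order from lowest to highest was Q111 at 43.1 ± 18.1 CPM (SD, n = 2 here and for each line), Q20 at 43.6 ± 2.16, Q92 at 49.8 ± 23.7, WT at 72.4 ± 16.1, KO at 72.6 ± 43.6 and Q50 at 79.3 ± 51.3. None of these neighbours differed beyond its spread.

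Mir183 lies upstream of the other members on their strand and gave the larger range among libraries. Its mESC counts in replicates 1 and 2 were 58 and 50 in WT, 48 and 57 in KO, 36 and 33 in Q20, 59 and 93 in Q50. They were 39 and 30 for Q92 and 62 and 116 for Q111. Scaled, these were 32.2 and 48.7 CPM in WT, 25.0 and 59.5 in KO, 25.8 and 21.7 in Q20, and 26.7 and 131.0 in Q50. They were 25.8 and 38.4 CPM for Q92 and 34.8 and 88.8 for Q111. The 2 highest libraries were replicate 2 of Q50 and of Q111, while their replicates 1 lay within the range of the other lines. By mean the order was Q20 at 23.8 ± 2.89 CPM (SD, n = 2 for each line), Q92 at 32.1 ± 8.93, WT at 40.4 ± 11.7, KO at 42.3 ± 24.4, Q111 at 61.8 ± 38.2 and Q50 at 78.9 ± 73.8. Here too all neighbours overlapped.

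**Figure D1:**
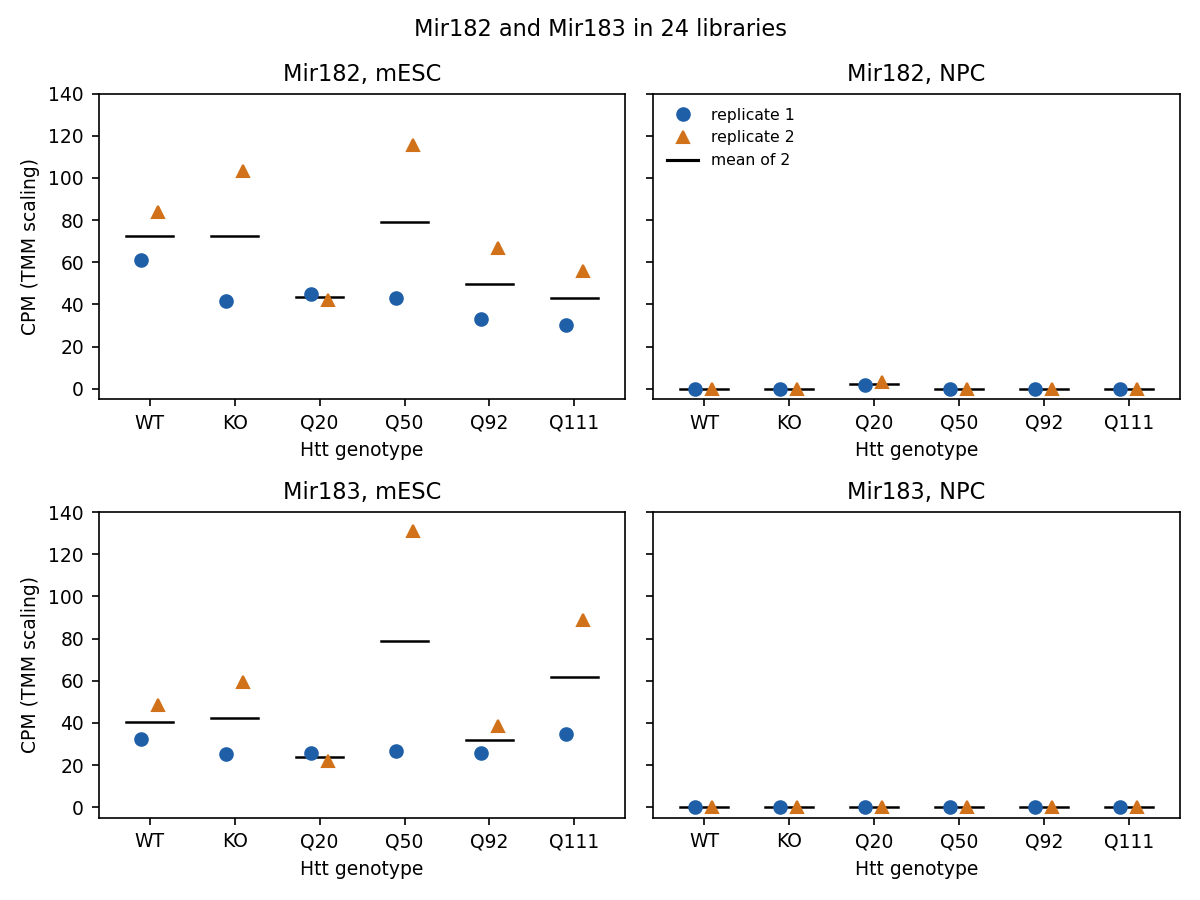
CPM (TMM-scaled) of Mir182 (upper panels) and Mir183 (lower panels) by Htt genotype in mESC (left) and NPC (right); circles are replicate 1, triangles replicate 2 and bars the mean of 2. The mESC libraries lie between 21.7 and 131.0 CPM, and in NPC all points are at 0 apart from Mir182 in Q20 (1.73 and 3.13 CPM).

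The raw counts of the cluster differed little with depth: replicates 1 held 89 to 168 and replicates 2 held 83 to 189, although 5 of the 6 replicates 2 had less than 0.5 times the total of their partner. The summed cluster stood at 106.9 ± 56.8 CPM over the 12 mESC libraries (SD, n = 12), from 58.8 to 248.0. Its ratio of replicate 2 to replicate 1 was 1.42 in WT, 2.44 in KO, 3.56 in Q50, 1.81 for Q92 and 2.22 for Q111, and 0.899 in Q20, the line whose replicates had like totals. As a share of microRNA counts the same ratios, in the same order, were 0.880, 1.22, 1.44, 0.941, 1.64 and 0.835. The share thus varied less between replicates than the CPM did in all 5 lines with unequal totals. What part depth or the microRNA content of a library has in the CPM was not tested.

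**Figure D2:**
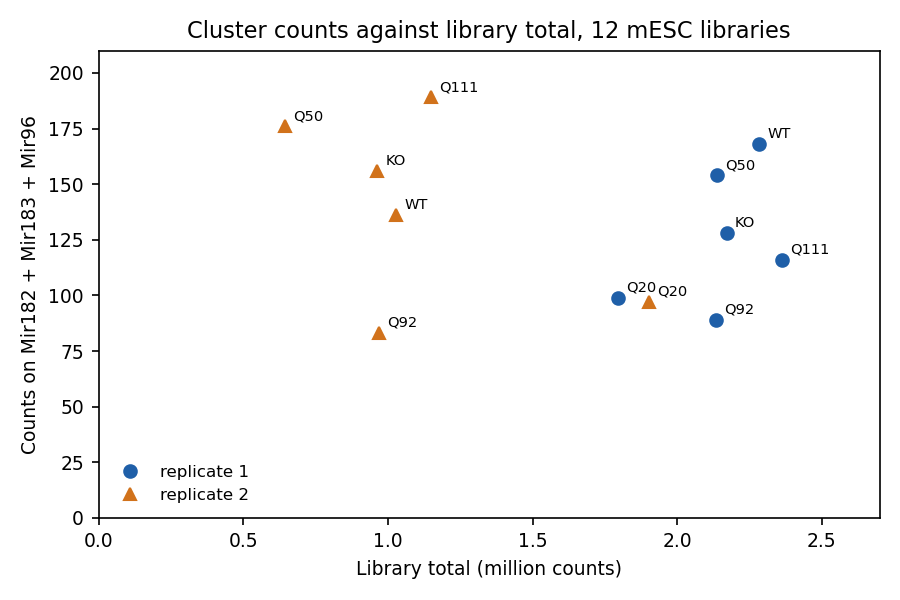
Counts on the 3 members together (vertical axis) against the total count of each of the 12 mESC libraries (horizontal axis); circles are replicate 1, triangles replicate 2, labelled by line. The shallower replicates 2 hold 83 to 189 cluster counts and the replicates 1 hold 89 to 168.

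On the share scale the lines separated more. The cluster took 1.83 and 1.53% of microRNA counts in Q20 (mean 1.68 ± 0.214, SD, n = 2 for each line) and 2.51 and 2.36% in Q92 (2.43 ± 0.105). It took 3.14 and 2.76% in WT (2.95 ± 0.266) and 2.89 and 3.53% in KO (3.21 ± 0.454). In Q111 it took 3.01 and 4.94% (3.97 ± 1.36) and in Q50 3.84 and 5.52% (4.68 ± 1.19). Q20 was below every other mESC library and Q92 below all libraries of WT, KO, Q111 and Q50, while those 4 lines overlapped with their neighbours in order. For Mir182 alone, Q20 (1.16 and 1.01%) was below and Q50 (2.37 and 2.57%) above every other library. For Mir183 alone, Q20 (0.665 and 0.519%) was lowest, and both Q50 (1.47 and 2.91%) and Q111 (1.61 and 3.03%) were above every library of the other lines.

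A share depends on the other microRNAs in its denominator, and in Q20 mESC these were unlike those of the other lines. Mir302a to Mir302d and Mir367, microRNAs of a pluripotency cluster on chromosome 3, took 20.5 and 18.6% of microRNA counts in the Q20 mESC libraries against 0.0453 to 6.38% in the other mESC libraries. With those genes taken out of the denominator, a scale chosen after the data had been seen, the cluster's share in Q20 was 2.30 and 1.87% (2.09 ± 0.301, SD, n = 2). It was still the lowest, below the 2.55 and 2.37% of Q92. Mir182 in Q20 (1.46 and 1.24%) then overlapped with Q92 (1.43 and 1.49%), and Mir183 in Q20 (0.836 and 0.638%) stayed below every other library.

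**Figure D3:**
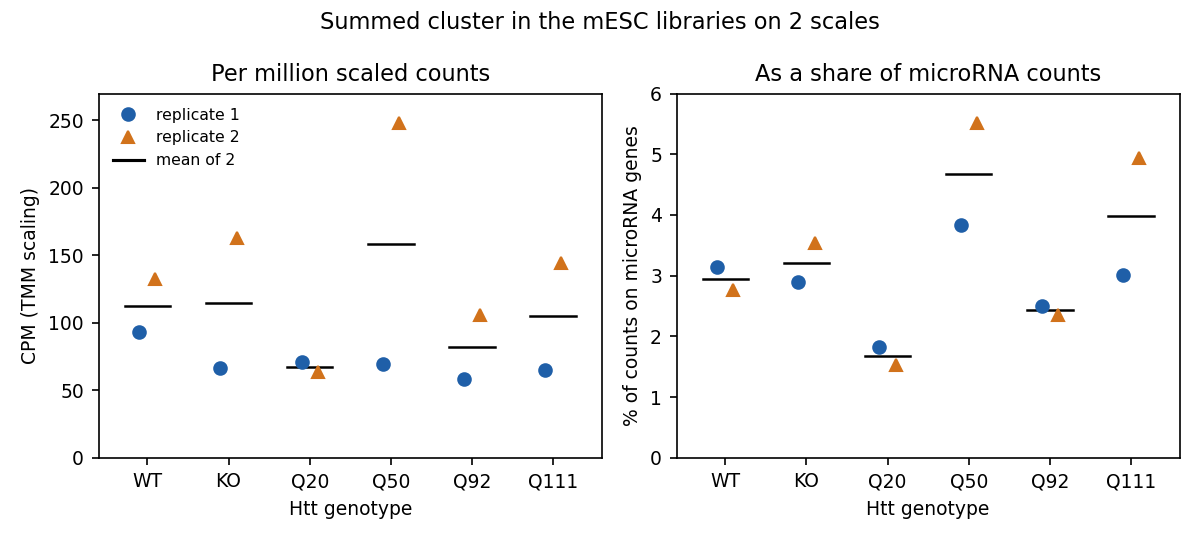
Summed cluster level in each mESC library by Htt genotype, as TMM-scaled CPM (left) and as a percentage of the counts on microRNA genes (right); circles are replicate 1, triangles replicate 2 and bars the mean of 2. The lines overlap on the left scale, and on the right Q20 lies lowest at 1.83 and 1.53%.

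The balance between the members needs no scaling, since both are counted in the same library. Mir183 gave 34.5 and 36.8% of the Mir182 and Mir183 counts in WT, 37.5 and 36.5% in KO and 36.4 and 34.0% in Q20. In Q50 it gave 38.3 and 53.1%, in Q92 it gave 43.8 and 36.6%, and the Q111 libraries had 53.4 and 61.4%. Both Q111 libraries were thus above every other library, the nearest being replicate 2 of Q50, while WT, KO and Q20 lay within a narrow range. With replicates added together, the share was 58.4% in Q111 (178 of 305 counts, exact 95% interval 52.6 to 64.0%) and 46.2% in Q50 (40.7 to 51.8%). It was 40.4% in Q92 (32.9 to 48.1%), 37.0% in KO (31.3 to 42.9%), 35.5% in WT (30.1 to 41.2%) and 35.2% in Q20 (28.5 to 42.3%). These intervals cover counting error only and not the spread between samples, and reads without molecular identifiers are not independent molecules. The Q111 line differed from Q50 and Q92 in repeat length and as a line, which cannot be told apart.

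**Figure D4:**
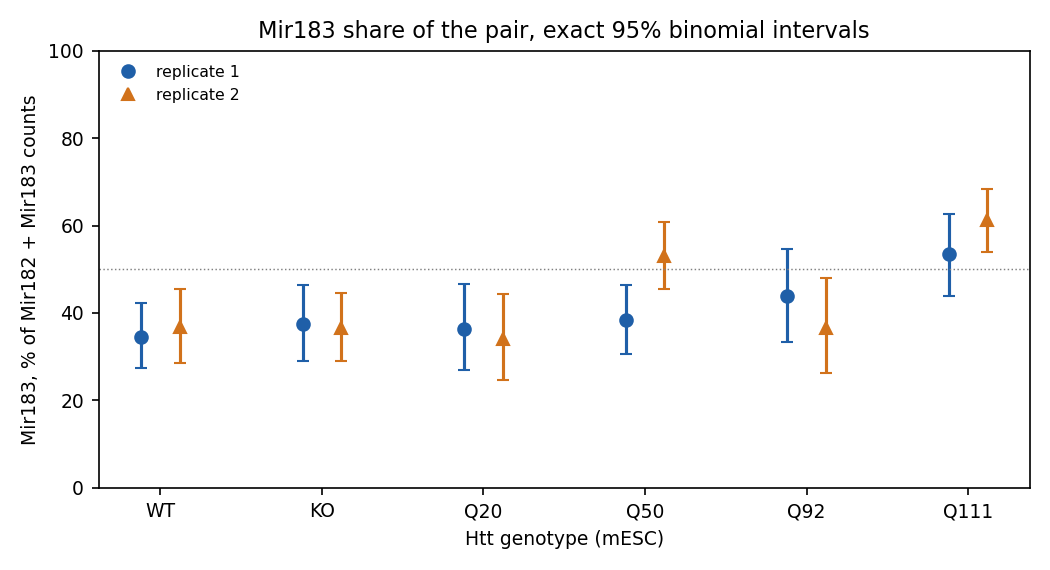
Mir183 as a percentage of Mir182 plus Mir183 counts in each mESC library, by genotype; points are libraries and bars are exact 95% binomial intervals for counting error, and the dotted line marks equal counts of both. The Q111 libraries lie at 53.4 and 61.4% and WT at 34.5 and 36.8%.

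The genotype comparisons in mESC asked whether loss of Htt or a longer repeat went with other levels of the members. They were tested with edgeR's quasi-likelihood test on counts, with Benjamini-Hochberg adjustment over all 1766 genes tested. Mir182 and Mir183 passed the filter on low counts through their levels in all lines, and Mir96 did not. Neither was called in any comparison. The background was as low. In KO against WT 0% of genes were called at an adjusted p under 0.05, in Q20 against WT 0.0566% (1 gene, Mir302b), in Q50, Q92 and Q111 against Q20 0% each, and for the slope on repeat length 0% of 1487. At an unadjusted p under 0.05 there were 18, 88, 98, 51, 60 and 48 genes in the same order. With DESeq2's Wald test 0, 9, 2, 1, 1 and 0 genes were called. With a depth term (a term for the shallower replicates 2, added after the data had been seen) 1, 35, 53, 16, 47 and 2 genes were called, neither member among them. Few calls on these libraries say little on whether the members differ, and the intervals below are the more useful measure.

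In KO against WT the log2 change was 0.04 ± 0.55 (SE) for Mir182, with a 95% interval of -1.14 to 1.22, and 0.10 ± 0.65 for Mir183 (-1.28 to 1.47), each with an edgeR adjusted p of 1. With the depth term these intervals were narrower, -0.71 to 0.58 for Mir182 and -0.73 to 0.76 for Mir183. Q20, the knock-in with the shortest repeat, stood lower than WT by estimates of -0.65 ± 0.56 for Mir182 (-1.84 to 0.54) and -0.68 ± 0.66 for Mir183 (-2.07 to 0.72), and neither passed the test (edgeR adjusted p = 0.998 for both). Scaled and tested among microRNA genes alone the Q20 estimates were -1.32 (-2.37 to -0.28) and -1.35 (-2.62 to -0.08), with edgeR adjusted p of 0.120 and 0.122. With the depth term they were -0.22 and -0.12.

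Among the knock-in lines, which were compared with Q20, the estimates of Mir183 were larger than those of Mir182. In Q50 against Q20 the log2 change was 1.60 ± 0.66 for Mir183 (95% interval 0.19 to 3.00), with an unadjusted p of 0.0284 that did not pass adjustment (edgeR adjusted p = 0.788). For Mir182 it was 0.77 ± 0.56 (-0.43 to 1.96, edgeR adjusted p = 0.929). With TMM scaling both Q50 libraries were above both Q20 libraries for Mir183, at 26.7 and 131.0 CPM against 25.8 and 21.7. With DESeq2 size factors the lower Q50 library (27.2 CPM) was below the higher Q20 library (27.9 CPM). Without replicate 2 of Q50 the log2 change was 0.25 for Mir183 and 0.06 for Mir182. With the depth term it was 0.80 for Mir183 and 0.22 for Mir182.

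In Q111 against Q20, Mir183 had a log2 change of 1.14 ± 0.65 (95% interval -0.24 to 2.53) and Mir182 of -0.24 ± 0.56 (-1.43 to 0.96), with edgeR adjusted p = 0.999 for both. Without replicate 2 of Q111 the change of Mir183 was 0.43, and with the depth term 0.48, whereas library totals gave 1.75 (0.03 to 3.47) and microRNA genes alone 1.84 (0.57 to 3.12, edgeR adjusted p = 0.180). In Q92 against Q20 the values were 0.37 ± 0.66 for Mir183 (-1.04 to 1.78) and 0.12 ± 0.57 for Mir182 (-1.08 to 1.32), again with edgeR adjusted p = 0.999. These comparisons share the 2 Q20 libraries, which were low for both members. The log2 slope on repeat length, per 10 repeats and fitted to the 8 mESC libraries of the knock-in lines, was -0.05 ± 0.06 for Mir182 (-0.18 to 0.09) and 0.04 ± 0.08 for Mir183 (-0.12 to 0.20), each with an edgeR adjusted p of 1.

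**Figure D5:**
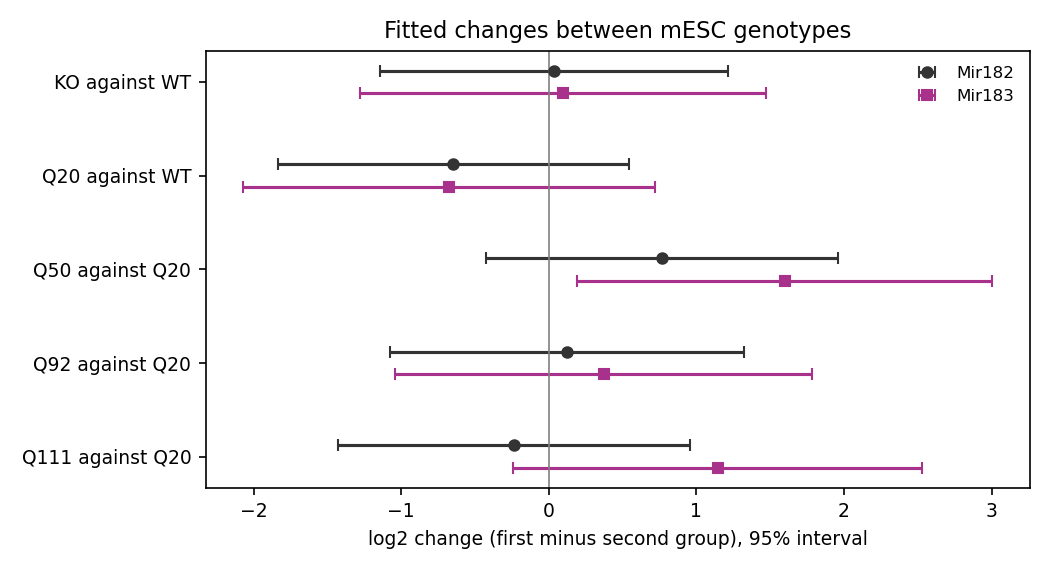
Log2 change of Mir182 and Mir183 with its 95% interval in each mESC genotype comparison, from edgeR. Every interval includes 0 apart from that of Mir183 in Q50 against Q20 (0.19 to 3.00), which did not pass adjustment.

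In NPC the cluster was all but undetected. Mir183 and Mir96 had 0 counts in all 12 NPC libraries, and Mir182 had 3 counts, 1 in replicate 1 and 2 in replicate 2 of Q20 (1.73 and 3.13 CPM). A count of 0 in a single NPC library allows a level of up to 4.49 to 8.44 CPM (3 counts), which is below every mESC level of Mir182 and Mir183. The deeper and the shallower NPC libraries alike lacked both, apart from those of Q20.

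Pooled over libraries, the size of the gap can be bounded on the TMM scale. Mir183 was at least 83.5-fold lower in NPC than in mESC, against a floor of 3 counts over the group of 12 NPC libraries (0.482 CPM) and 40.2 CPM in mESC. Mir182 was 111-fold lower (95% counting interval 38.1 to 540-fold), at 0.482 against 53.6 CPM, and in the 10 NPC libraries other than Q20, which had no count of it, at least 93.1-fold lower. For Mir96 no fold can be given, since its mESC level of 0.118 CPM is itself under the NPC floor. These folds hold for TMM scaling only, and bounds on the other scales were not computed. MicroRNA genes took 0.163 to 0.497% of the counts of mESC libraries and 0.0582 to 0.159% of those of NPC libraries. As shares of microRNA counts the folds would therefore be smaller. In the whole-table fit over 24 libraries, edgeR tested 904 genes and called 28.0% lower and 30.4% higher in NPC at an adjusted p under 0.05. Mir182 and Mir183, the 2 members that passed the low-count filter, which they did through mESC alone, were among those lower, and nothing is read from that count. The 2 directions depended on scaling, since library totals in place of TMM gave 350 genes higher and 159 lower against 275 and 253 and the median log2 change over all 904 went from -0.02 to 0.32. In bulk samples, fewer cells of a type and less RNA per cell cannot be told apart.

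No member passed the filter on low counts among the NPC libraries. With no filter, Mir182 was tested on its 3 counts in the NPC genotype comparisons and not called (edgeR adjusted p from 0.556 to 1). All 3 counts were in Q20, so these tests only restate where those reads fell, and nothing is read from them. The lowest p was that of the slope on repeat length (unadjusted p = 0.0141, edgeR adjusted p = 0.556), and the fitted changes of so few counts depend on the prior count and are not given. The 3 Mir182 counts in Q20 NPC correspond to 5.67% of the Q20 mESC level (95% counting interval 1.17 to 16.6%). Mir183 had 0 counts there, at least 9.59-fold lower than in Q20 mESC, both values again on the TMM scale. Q20 NPC also held microRNAs of embryonic stem cells that the other NPC lacked. The 11 listed ES-cell microRNAs had 432 counts in the 2 Q20 NPC libraries, 344.9 and 365.0 CPM, which was 13.2% of their Q20 mESC level. In the other 10 NPC libraries 10 of the 11 were at 0. Of the listed Mir290 to Mir295 members, Mir294 was at 0% (8 counts in Q20 mESC), Mir295 at 3.39%, Mir292 at 4.50%, Mir291a at 5.71%, Mir293 at 6.84% and Mir290a at 60.0% (8 counts in Q20 mESC) of that level. Mir302b was at 28.8% and Mir367 at 56.4%. Mir302c was at 43.6%, Mir302d at 68.5% and Mir302a at 69.9%, on 22, 7 and 24 counts in Q20 mESC. The interval of Mir182 is too wide to place it among the listed ES-cell microRNAs. The sum of the 7 listed ES mRNAs did not show this difference. It was 11.5 ± 1.51 CPM in Q20 NPC (SD, n = 2) and 9.68 ± 3.33 in the other NPC (SD, n = 10). Sox2, which is also a listed neural progenitor mRNA, gave 57 of the 63 NPC counts in this sum. The sum therefore says little on the other ES mRNAs. Of the 7, Nanog, Tdgf1 and Zfp42 had 0 counts in all NPC. The 7 listed neural progenitor mRNAs summed to 69.7 ± 16.6 CPM in Q20 NPC and 131.4 ± 35.9 in the other NPC. The part of residual mESC in these libraries was not tested.

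The genes whose levels went most with the summed cluster were described by Pearson's r of log2 CPM (prior count 2), with no p, since all points share library depth and scaling. Over the 12 mESC libraries and 1764 other genes the highest were Gm42418 (0.92), a row within ribosomal RNA-like sequence, Commd6 (0.92), Eed (0.91), a subunit of Polycomb repressive complex 2, mt-Cytb (0.91), mitochondrial cytochrome b, and Ccnf (0.91), cyclin F. Commd6, Eed and Ccnf had no more than 12 counts in a library. Among the 47 other microRNA genes that passed the filter, the highest were Mir295 (0.89), Mir181d (0.87), Mir292 (0.84), Mir6236 (0.74) and Mir296 (0.72), and Mir181d had no more than 9 counts in a library. Mir182 and Mir183 correlated with each other at 0.75.

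Over all 24 libraries, where r is set by the gap between the cell types, the 5 nearest of 902 genes were all from the Mir290 to Mir295 cluster of chromosome 7, the main microRNA locus of mouse ES cells. They were Mir295 (0.99), Mir291a (0.99), Mir292 (0.99), Mir293 (0.96) and Mir291b (0.94), beside 0.98 between Mir182 and Mir183. Mir295 had a mean of 112.8 ± 72.7 CPM over the mESC (SD, n = 12) and of 0.419 ± 1.06 CPM over the NPC (SD, n = 12).

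Genes of the microRNA pathway were read from mRNA fragments, of which small RNA libraries hold few. Of 16 listed biogenesis and effector genes, 4 passed the filter over the 24 libraries, with a median log2 difference, NPC minus mESC, of 0.46 against -0.02 over all genes tested. Tnrc6b, a scaffold protein of the silencing complex that binds Argonaute, was higher in NPC by 0.92 ± 0.29 (SE, edgeR adjusted p = 0.00816), and none was lower. That is 1 of 4, beside 30.4% called higher over all genes tested, so nothing is read from the count. Ago2, the slicing Argonaute, had a difference of 0.12 ± 0.32, and Ago1 of -0.69 ± 0.51, and neither passed the test. Tnrc6a, a paralog of Tnrc6b, had a difference of 0.80 ± 0.37 and did not pass (edgeR adjusted p = 0.0704). In the mESC comparisons 10 of the 16 were tested and 0 were called in any.

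Of 11 published targets of the cluster, 2 passed the filter over the 24 libraries, with a median log2 difference of 0.61 against -0.02 over all genes tested (0.32 over all genes with library totals). Of these, 1 was called higher, beside 30.4% over all genes, and nothing is read from so few. Itgb1, the integrin beta 1 chain, was higher in NPC by 0.73 ± 0.22 (SE, edgeR adjusted p = 0.00668), at 16.8 ± 5.54 CPM against 9.78 ± 2.68 (SD, n = 12 each). Foxo3, a forkhead transcription factor, had a difference of 0.49 ± 0.32 and did not pass (edgeR adjusted p = 0.196). Brca1 and Ezr, which did not pass the filter, had 78 and 69 counts in the deeper mESC libraries and 10 and 9 in NPC. Scaled, their means were 4.63 and 4.08 CPM in mESC and 1.62 and 1.34 in NPC. Irs1 and Adcy6, also below the filter, went the other way, at 0.169 and 0.283 CPM in mESC and 5.05 and 2.61 in NPC. In the mESC comparisons 3 were tested and 0 called. Their levels are those of mRNA fragments in a small RNA library, and no level of intact mRNA or protein was measured.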

How the data were processed

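Small RNA libraries (single-end reads of 50 bases) of 24 samples were sequenced by the study. The deposited file holds raw counts per gene, made by the authors with CASAVA 1.8, STAR and HTSeq on GRCm38.p6, per the submitters' processing notes; their settings, adapter trimming, treatment of reads with several matches and strand are not given in the sources used here. Of 55335 gene rows, 55154 IDs matched GENCODE M21 (the others held 57 counts). Columns named Q89 were taken as the samples titled Q92. Sequences are from RefSeq, GRCm38.p6.

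From the counts, TMM-scaled CPM and edgeR 4.0.16 quasi-likelihood fits (R 4.3.3; filterByExpr by group with a minimum count of 10 and total of 15; Benjamini-Hochberg adjusted p under 0.05) were computed, with 1 fit for the 12 mESC libraries, 1 for the 12 NPC and 1 for all 24, and slopes on the repeat lengths in the titles, each over 8 libraries (4 knock-in lines). The fits were also run on simulated independent counts with the same dispersion for every gene. That simulation held no deviation shared by replicates 2, so it does not show how the fits behave with the one seen in mESC. All replicate pairs differed beyond sampling noise. Alternatives were DESeq2 1.42.0 (size factors, and its Wald test), library totals, no filter on low counts, microRNA genes alone, a replicate block, WT in place of Q20 and leaving out each library. A depth term for replicate 2 of the lines other than Q20 and the share without Mir302 and Mir367 were added after the data had been seen. The members and lists were chosen with earlier results of these data known. Named genes were the members, the 5 genes and 5 microRNA genes with the highest r, up to 4 examples of a list with the highest mean CPM, and neighbours within 100 kb. Further list members were named to show the range or both directions within a list.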

Additional observations from a re-analysis of the deposited data

How the results depend on the processing

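In the 6 mESC genotype comparisons none of 234 refitted values was called (edgeR or DESeq2 adjusted p from 0.102 to 1). Mir182 and Mir183 are counted separately in that number, which includes the fits with WT in place of Q20. No alternative changed the number of members called in any comparison. Of the members' log2 changes, 270 kept their direction and 24 changed sign, all of them of values whose interval includes 0, and the cause was not tested. The replicate numbers were not taken as pairing, since same-numbered mESC libraries deviated together in the 10 pairs of lines without Q20 (r 0.407 to 0.489) but not in the 5 with Q20 (-0.00484 to 0.0809), nor in NPC (1 of 15 pairs over 0.1). The main mESC fits thus leave a deviation shared by the lines other than Q20 in their spread, also in KO against WT. With the replicate block, Mir182 in KO against WT was -0.05, and 0, 25, 20, 2, 12 and 3 genes were called in KO and Q20 against WT, in Q50, in Q92 and in Q111 against Q20 and on the slope, against 0, 1, 0, 0, 0 and 0 without it. The depth term called 1, 35, 53, 16, 47 and 2, and no filter 0, 5, 2, 2, 1 and 2. The depth term gave -0.07 for Mir182 in KO against WT, -0.37 for Mir182 and -0.17 for Mir183 in Q92 against Q20, and a slope of -0.015 for Mir183. Its intervals excluded 0, with no call, for Mir182 in Q111 against Q20 (-0.72, -1.43 to -0.01), in Q111 against WT (-0.94, -1.60 to -0.27) and on the slope (-0.10, -0.19 to -0.01). In KO against WT the intervals of Mir182 and Mir183 were -0.87 to 0.77 and -0.89 to 0.95 with the block, and -0.71 to 0.58 and -0.73 to 0.76 with the depth term, narrower than those without either and inside a 2-fold change. With microRNA genes alone, KO against WT was -0.12 for Mir182 and -0.05 for Mir183, Q111 against Q20 was 0.49 for Mir182, and its slope 0.009. Library totals gave 0.31 for Mir182 in Q111 against Q20, and no filter gave -0.04 in Q92 against Q20. With WT in place of Q20, Q92 stood at -0.53 for Mir182 and -0.30 for Mir183 (-0.59 and -0.29 with the depth term). Leaving out each library, Mir182 ranged from -0.66 to 0.47 in KO against WT, from -0.64 to 0.05 in Q111 against Q20 and from -0.44 to 0.55 in Q92 against Q20. Mir183 ranged from -0.55 to 0.52 in KO against WT and from -0.009 to 0.108 on the slope.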
